A study of Rattus norvegicus with 6 samples.

Results

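RUCA-I is an epithelial cell line that was grown out of an endometrial (uterine lining) adenocarcinoma of the rat. The genes described here are 10 components of the JAK-STAT3 pathway and its IL-6 family receptors, namely Il6st, Il6r, Lifr, Osmr, Jak1, Jak2, Tyk2, Stat3, Stat5b and Stat6. They were chosen by symbol, and all 10 had a tested row among the 11778 symbols with a tested row in the deposited gene table. Where a symbol had several rows, the row with the longest locus was taken as its main row. RNA was sequenced from 3 miR-203 KO lines (genotype miR-203 -/-), each made independently, and from 3 batches of wild-type (WT) cells. Both groups carry the Lewis strain background and were untreated cultures near confluence. How the KO lines were made, and whether each is a single clone, is not given in the sources used here, so the loss of the microRNA and other differences between these lines and the WT batches cannot be told apart.

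IL-6 family cytokines bind a receptor pair that contains gp130, the chain encoded by Il6st. The paired chains bring JAK kinases together, and these phosphorylate STAT transcription factors, which then enter the nucleus. STAT3 is the main factor downstream of gp130, and Socs3 is a feedback inhibitor of this receptor. In mouse uterus, LIF acting through Lifr, Il6st and Stat3 is required for embryo implantation.

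The microRNA removed in the KO lines is shown first because it is the labelled difference between the groups. Its mature strands are given 5′ to 3′ from RefSeq (build GRCr8, chromosome 6, plus strand), with the seed, bases 2 to 8, in capitals. Of the 724 mature rat microRNAs in that table, only miR-203a-3p carries its seed.
rno-miR-203a-3p: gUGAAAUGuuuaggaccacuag
rno-miR-203a-5p: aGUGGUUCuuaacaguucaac
Target sites in the members' transcripts were not analysed here.

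None of the 10 members was called in the KO lines, so the receptor chains, kinases and STAT factors of this pathway showed no change that passed the test. The values are 1 FPKM per gene and group (sequenced fragments scaled to transcript length and library size), which the authors made from the 3 samples of each group, so no SD stands behind them and the read depth is unknown. A gene was called where q was under 0.05 in the authors' deposited table, from their Cuffdiff test with Benjamini-Hochberg adjustment over 26459 rows. Of all tested rows, 1.05% were called, so 0 of 10 is near the background. By main row, 1 member, Jak2, had an unadjusted p under 0.05 in the authors' deposited table, while 6.002% of all tested rows had such a p. The second row of Lifr, described below, also had one, with p = 0.0148 in the authors' deposited table. Over the 10 members, the log2 ratio of KO to WT had a median of 0.085 and ranged between −0.35 and 0.20. Over the 9 members whose mean FPKM was 1 or more the median was 0.073, and over all 18080 such rows it was 0.0052 with quartiles of −0.13 and 0.16. As deposited, 7 members were higher and 3 lower in KO lines. Scaling both groups to the same FPKM sum lowers every log2 ratio, and the median of all rows, by 0.16, and 3 members then stay higher. Division by the median ratio of rows whose mean FPKM was 5 or more, a log2 of −0.0066, left 8 members higher. The number of members higher in KO lines thus depends on the scaling.

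**Figure D1:**
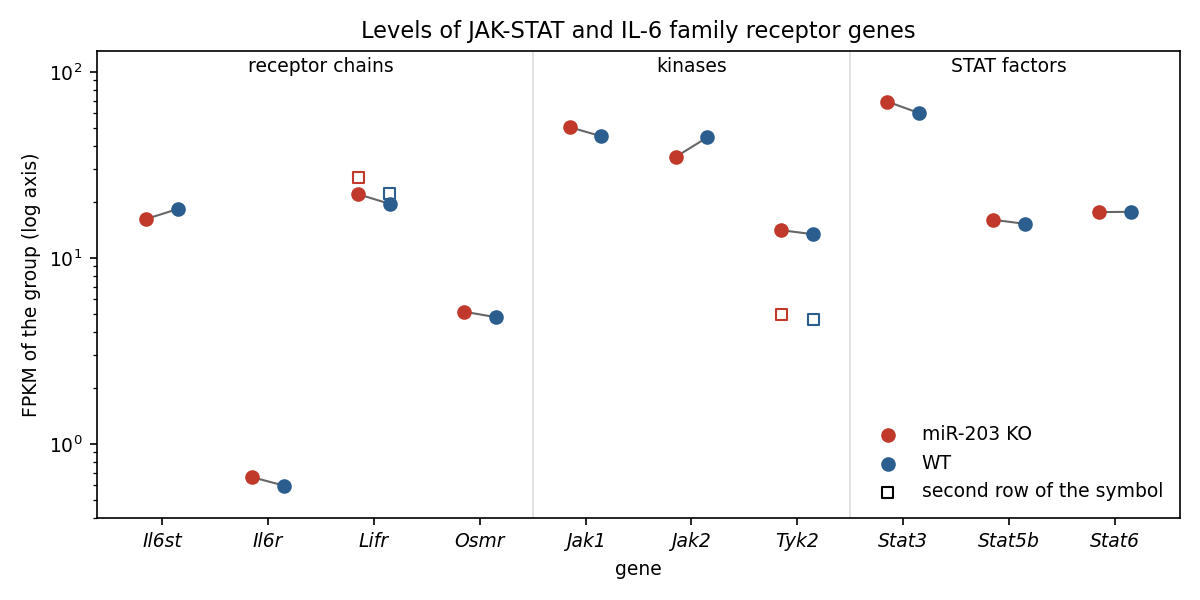
FPKM of each gene (log axis) in miR-203 KO lines (red) and WT cells (blue), 1 pooled value per group, with open squares for the second rows of Lifr and Tyk2. Stat3 had the highest level in both groups (69.3 FPKM in KO lines, 60.1 in WT cells) and Il6r the lowest (0.662 and 0.596).

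By level per transcript length, the members spanned a wide range, and their order was nearly shared by the groups. In KO lines, the order from the highest FPKM down was Stat3, Jak1, Jak2, Lifr, Stat6, Il6st, Stat5b, Tyk2, Osmr and Il6r. In WT cells the order differed by 1 exchange, with Il6st above Stat6. With 1 value per group it cannot be said which neighbours in this order differ beyond the spread between samples. Stat3 stood above 88.5% of rows whose mean FPKM was 1 or more and Osmr above 37.4%.

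Among the receptor chains, the shared chain and the LIF chain were the abundant ones. Il6st, which encodes gp130 (chromosome 2, 44279156 to 44319427, rn6), had 16.2 FPKM in KO lines and 18.3 FPKM in WT cells, a log2 fold of −0.18 at q = 0.957 in the authors' deposited table. Lifr, the LIF-binding partner of gp130 (chromosome 2, 56426521 to 56489390), had 22.01 FPKM in KO lines and 19.5 FPKM in WT cells, a log2 fold of 0.17 at q = 0.992 in the authors' deposited table. The 2 chains thus lay in opposite directions without either passing the test. In FPKM, Lifr stood at 1.36 times Il6st in KO lines and at 1.06 times in WT cells, a comparison for which no test was possible.

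Lifr also had a second row of 4496 bp that starts 111 bp after the end of the main one (56489501 to 56493997). It had 27.2 FPKM in KO lines and 22.3 FPKM in WT cells, a log2 fold of 0.29 with p = 0.0148 and q = 0.509 in the authors' deposited table. Both rows of the gene were therefore higher in KO lines as deposited, and neither was called. Osmr, the oncostatin M receptor chain (chromosome 2, 56123023 to 56162981), lies beside Lifr and had 5.14 FPKM in KO lines and 4.801 FPKM in WT cells, at q = 0.997 in the authors' deposited table.

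Il6r, the chain that binds IL-6 itself, had the lowest level among the members. Its only tested row is a locus of 800 bp (chromosome 2, 189207792 to 189208592), with 0.662 FPKM in KO lines and 0.596 FPKM in WT cells and q = 0.997 in the authors' deposited table. This was the single member whose mean over both groups was under 1 FPKM, and the shortest main row among the 10. The main rows of the 4 receptor chains summed to 44.01 FPKM in KO lines and 43.3 FPKM in WT cells. The second row of Lifr, which stood above its main row in both groups, is not in these sums.

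Among the members, the kinases held the difference that came closest to the threshold. Jak2, the kinase of the erythropoietin, growth hormone and prolactin receptors and also of gp130 (chromosome 1, 247398248 to 247459022), had 34.9 FPKM in KO lines and 44.5 FPKM in WT cells. The log2 fold was −0.35, with p = 0.00115 and q = 0.0900 in the authors' deposited table, which misses the threshold. When p was adjusted only over rows whose mean FPKM was 1 or more, 1.45% of rows were called and q for Jak2 was 0.0703; with a minimum of 5, 1.53% were called and q was 0.0673. Its log2 ratio was larger in size than that of 88.9% of rows whose mean FPKM was 5 or more. Of the 2260 rows within 1.5-fold of the mean level of Jak2, 33 were called, the smallest of these with a log2 ratio of 0.38 in size, and 107 others were at least as far from 0 as Jak2 without a call. At these levels no row with a ratio as small as that of Jak2 was called, so a p that misses the threshold here does not show that the levels were equal.

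The genomic start of Jak2 is shown because this gene came nearest to a call among the members. The RefSeq window holds 250 bases before and 50 bases from the gene start (GRCr8, chr1:236408655-236408954, plus strand), the bases from the start in capitals.
Jak2: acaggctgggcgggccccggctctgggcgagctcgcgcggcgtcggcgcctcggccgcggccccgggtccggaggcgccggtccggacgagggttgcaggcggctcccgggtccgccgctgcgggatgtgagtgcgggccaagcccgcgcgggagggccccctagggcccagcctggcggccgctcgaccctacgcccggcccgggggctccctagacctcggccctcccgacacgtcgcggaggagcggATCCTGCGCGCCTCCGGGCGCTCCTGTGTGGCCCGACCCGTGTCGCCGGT
It is 80.3% G or C, above 99.1% of the rat promoter windows in that table. The STAT motif TTCNNNGAA, which reads the same on both strands, occurred in 8.87% of 33469 windows of this length. It was found in none of the windows of the 8 members matched by symbol (Jak1 and Tyk2 had no entry), which says only that these letters are not in these 300 bases.

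Jak1, the kinase most needed for gp130 signalling (chromosome 5, 119981796 to 120091427), had 50.5 FPKM in KO lines and 45.05 FPKM in WT cells, a log2 fold of 0.17 at q = 0.992 in the authors' deposited table. Jak1 and Jak2 stood at nearly the same FPKM in WT cells, while in KO lines Jak1 was 1.45 times Jak2, against 1.01 times in WT cells; this difference of ratios was not tested. Tyk2, which serves type I interferon and IL-12 family receptors (chromosome 8, 22124583 to 22149745), had 14.1 FPKM in KO lines and 13.4 FPKM in WT cells, at q = 0.997 in the authors' deposited table. A second Tyk2 row with the same coordinates had 4.97 FPKM in KO lines and 4.68 FPKM in WT cells. Jak3, which is no member, had 7.94 FPKM in KO lines and 6.76 FPKM in WT cells and was not called. Of the summed FPKM of the 4 JAK genes, Jak2 held 32.5% in KO lines and 40.5% in WT cells, and Jak1 held 47.02% in KO lines and 41.1% in WT cells.

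Most rows around Jak2 were higher in KO lines as deposited, though not all. Within 500 kb on either side, 8 rows had a mean FPKM of 5 or more, of which 7 were higher in KO lines as deposited (5 after scaling to the same FPKM sum), with a median log2 ratio of 0.20 that this scaling lowers by 0.16. None of them was called. Of these 8, the nearest on one side, Rcl1, had 40.7 FPKM in KO lines and 42.4 FPKM in WT cells, and the nearest on the other, Plgrkt, had 6.78 FPKM in KO lines and 5.58 FPKM in WT cells.

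**Figure D2:**
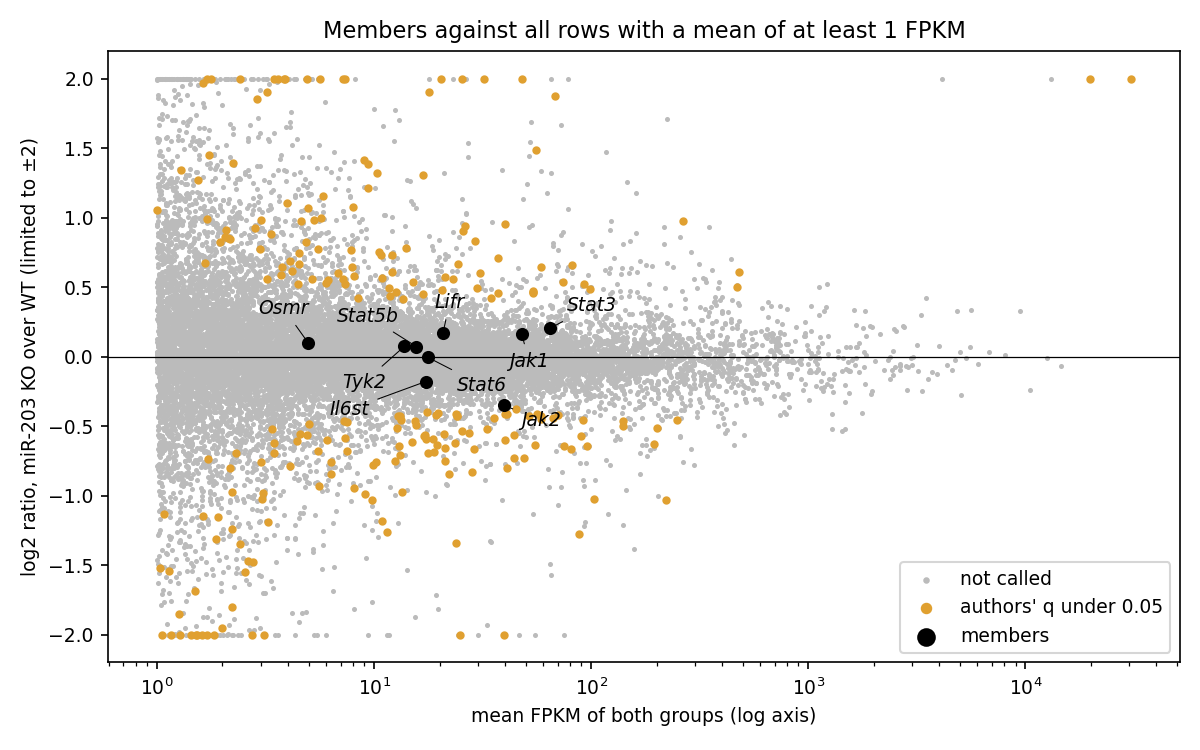
Log2 ratio of miR-203 KO over WT (limited to ±2) against the mean FPKM of both groups (log axis) for the 18080 rows whose mean FPKM was 1 or more, called rows in orange and the 9 members at that level in black. Jak2, at −0.35, lies nearer 0 than any called row within 1.5-fold of its level, and the other 8 lie between −0.18 and 0.20.

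None of the 3 STAT factors among the members was called. Stat3 (chromosome 10, 88790396 to 88842312) had 69.3 FPKM in KO lines and 60.1 FPKM in WT cells, a log2 fold of 0.20 with p = 0.0613 and q = 0.877 in the authors' deposited table. Stat5b, which mediates growth hormone and prolactin signals (chromosome 10, 88684007 to 88718266), had 16.03 FPKM in KO lines and 15.3 FPKM in WT cells, at q = 0.997 in the authors' deposited table. Stat6, the factor of IL-4 and IL-13 (chromosome 7, 70945816 to 70970846), had 17.6 FPKM in KO lines and 17.7 FPKM in WT cells, a log2 fold of −0.0053 at q = 0.997 in the authors' deposited table. Stat6 thus had the smallest difference among the members on the deposited scale, while scaling to the same FPKM sum gave it a log2 ratio of −0.17 and Jak1 the smallest, 0.0014.

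Stat3 had the highest level of the 5 STAT genes given here in both groups. It made up 57.0% of their summed FPKM in KO lines and 54.0% in WT cells. Stat2, which is no member, had 16.6 FPKM in KO lines and 16.1 FPKM in WT cells. Stat5a, which lies between Stat5b and Stat3 on chromosome 10 (88765520 to 88789066), had only 2.16 FPKM in KO lines and 2.21 FPKM in WT cells. In FPKM, Stat5b stood at 7.42 times Stat5a in KO lines and at 6.901 times in WT cells. None of these was called, and Stat4 had no row under its symbol.

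The wider pathway was followed in 9 gene lists chosen with earlier results of these data known. Of the 163 listed symbols that are no members, 100 had a tested row, of which 2 were called higher, 5 lower and 93 not called. That is 7% of the 100, against 1.05% of all tested rows, and every call lay in the lists of target or receptivity genes, several of which were known to be called when the lists were written. This share is therefore not independent evidence of a change in the pathway. Over the genes whose mean FPKM was 1 or more, the median log2 ratio was 0.057 for 3 ligands, 0.13 for 2 other family receptor chains and 0.042 for 3 other JAK and STAT genes. It was 0.033 for 12 other receptors, 0.024 for 15 adaptors and cofactors, −0.074 for 7 genes reported as STAT5 or STAT6 targets and −0.18 for 9 receptivity genes. Each of these shifts with the scaling to the same FPKM sum, which lowers them all by 0.16. The 9 receptivity genes include the members Lifr, Il6st and Stat3, and their median of −0.18 is the ratio of Il6st itself. The receptivity median was −0.049 where mean FPKM was 5 or more, which leaves out Wnt4, with 1.39 FPKM in KO lines and 1.96 FPKM in WT cells.

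Ligands of the family were detected without a call. Of 12 ligand and partner genes, 5 had a tested row, 0 were called and 0 had an unadjusted p under 0.05 in the authors' deposited table. Clcf1, a ligand of the CNTF receptor, had 27.3 FPKM in KO lines and 26.3 FPKM in WT cells. Lif had 10.9 FPKM in KO lines and 10.3 FPKM in WT cells, at q = 0.997 in the authors' deposited table. Ctf1, cardiotrophin 1, which also acts through Lifr, had 1.13 FPKM in KO lines and 1.44 FPKM in WT cells. Il6, Il11 and Osm had no row under their symbols. So the line carried RNA for LIF and for both chains of its receptor, in both groups.

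Other receptor chains and other receptors that use JAKs held no call either. Il11ra1, the IL-11 binding chain, had 2.23 FPKM in KO lines and 2.17 FPKM in WT cells, and Il27ra, of the IL-27 receptor, had 2.09 FPKM in KO lines and 1.79 FPKM in WT cells. Of 27 further receptors, 15 had a tested row and 0 were called, while 2 had an unadjusted p under 0.05 in the authors' deposited table. Il4r, the IL-4 receptor chain, had 89.7 FPKM in KO lines and 96.2 FPKM in WT cells and was the highest of them. Ifngr1, of the interferon gamma receptor, had 15.2 FPKM in KO lines and 17.2 FPKM in WT cells, and its partner Ifngr2 had 7.78 FPKM in KO lines and 6.098 FPKM in WT cells, with p = 0.0380 and q = 0.779 in the authors' deposited table. The other with such a p, Il12rb2, of the IL-12 receptor, had 0.243 FPKM in KO lines and 0.614 FPKM in WT cells, a log2 fold of −1.34 with p = 0.0163 and q = 0.539 in the authors' deposited table. The row of Il13ra1 spans only 106 bp, a length at which FPKM cannot be relied on, with 61.2 FPKM in KO lines and 48.2 FPKM in WT cells.

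Inhibitors of the pathway showed no call. Of 25 listed symbols, 21 had a tested row, 0 were called and 1, Socs3, had an unadjusted p under 0.05. Lnk and Grim19, listed without a row, are other names of the listed Sh2b3 and Ndufa13. The median log2 ratio of the inhibitors was −0.0034. Socs3 (chromosome 10, 106973874 to 106976931) had 12.4 FPKM in KO lines and 9.88 FPKM in WT cells, a log2 fold of 0.32 with p = 0.0179 and q = 0.565 in the authors' deposited table. Pias3, a protein inhibitor of STAT3, had 69.3 FPKM in KO lines and 67.4 FPKM in WT cells. Its log2 fold in the authors' deposited table, 0.20, differs from the 0.040 that these FPKM values give. Socs5, another member of the SOCS family, had 48.6 FPKM in KO lines and 46.8 FPKM in WT cells. A row of 402 bp under Ndufa13, also known as GRIM-19 (chromosome 7, 36826430 to 36826832), had 56.8 FPKM in KO lines and 61.01 FPKM in WT cells. Whether this short row stands for the level of the gene was not checked.

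Adaptors and cofactors gave 0 calls among 15 tested, with 1 unadjusted p under 0.05. That was Src, a tyrosine kinase able to phosphorylate STAT3, which had 81.1 FPKM in KO lines and 64.4 FPKM in WT cells, a log2 fold of 0.33 with p = 0.00250 and q = 0.161 in the authors' deposited table. Kpnb1, importin beta, had 259 FPKM in KO lines and 276 FPKM in WT cells, and Kpna3, an importin alpha, had 60.8 FPKM in KO lines and 71.1 FPKM in WT cells.

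Genes reported as STAT3 targets held 1 call higher and 3 lower among 34 with a tested row, and 30 were not called. Over all tested rows, 0.491% were called higher and 0.556% lower. An unadjusted p under 0.05 in the authors' deposited table was held by 9 of the 34, against 6.002% of all tested rows, and some of these genes were listed with their calls known. Among those whose mean FPKM was 1 or more, 14 were higher and 18 lower, with a median log2 ratio of −0.083. Cebpb, a transcription factor of the acute phase response (chromosome 3, 164418946 to 164426007), rose to 14.7 FPKM in KO lines, against 10.6 FPKM in WT cells, a log2 fold of 0.46 at q = 0.00756 in the authors' deposited table. Vegfa, an angiogenic growth factor, fell to 20.5 FPKM in KO lines, against 27.6 FPKM in WT cells, at q = 0.0187 in the authors' deposited table. The immediate early factor Egr1 fell to 3.84 FPKM in KO lines, against 7.296 FPKM in WT cells, and the AP-1 subunit Fosl1 fell to 16.9 FPKM in KO lines, against 22.4 FPKM in WT cells, at q = 0.00756 and q = 0.0351 in the authors' deposited table. Hp, which encodes the acute phase protein haptoglobin, was not called, with 4.32 FPKM in KO lines and 2.87 FPKM in WT cells, a log2 fold of 0.59 with p = 0.000800 and q = 0.0683 in the authors' deposited table.

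The calls among reported STAT3 targets thus lay in both directions, 1 higher and 3 lower. Of the uncalled ones with an unadjusted p under 0.05 in the authors' deposited table, Hp and Socs3 were higher in KO lines. Fos, Tnfaip3 and Pim3 were lower there, with log2 folds of −0.64, −0.33 and −0.28. Their p was 0.0083, 0.00575 and 0.02315 in the authors' deposited table. Ccnd1, cyclin D1, at 208 FPKM in KO lines and 203.4 FPKM in WT cells, and Hif1a, at 88.2 FPKM in KO lines and 90.98 FPKM in WT cells, were not called. Lcn2, lipocalin 2, had 5.603 FPKM in KO lines and 7.22 FPKM in WT cells, at q = 0.948 in the authors' deposited table. This list also holds the members Osmr, Stat3 and Il6st.

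**Figure D3:**
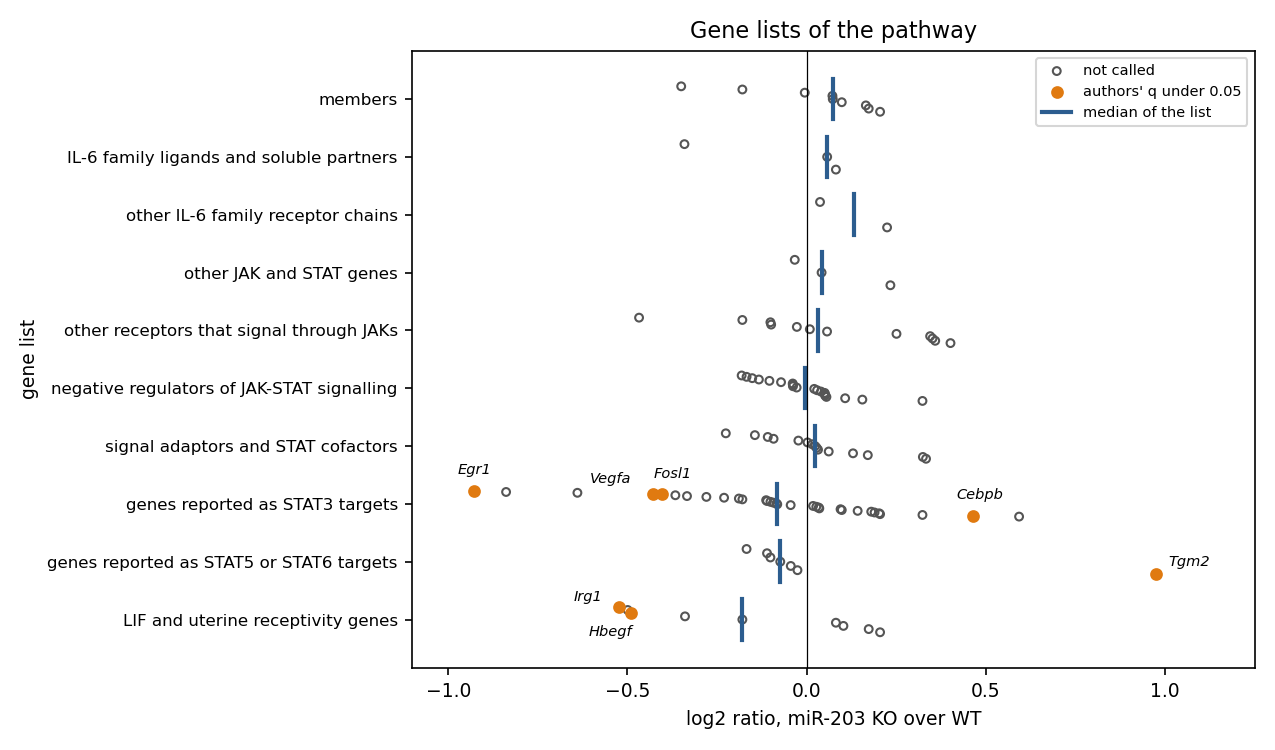
Log2 ratio of miR-203 KO over WT for each gene whose mean FPKM was 1 or more in the 10 members and 9 pathway lists, called genes in orange and each list's median as a blue bar. The 7 called genes lie in the lists of STAT3 targets, STAT5 or STAT6 targets and receptivity genes, and the members and the other 6 lists hold open circles only.

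Of genes reported as STAT5 or STAT6 targets, 1 of 9 with a tested row was called. Tgm2, transglutaminase 2 (chromosome 3, 154597128 to 154627312), rose to 352 FPKM in KO lines, against 179 FPKM in WT cells, a log2 fold of 0.98 at q = 0.00756 in the authors' deposited table. Tgm2 and Cebpb both lie on the distal part of chromosome 3. So do Src (153548632 to 153595939) and the inhibitor gene Ptpn1 (164665383 to 164714850), neither of them called. Ptpn1 had 35.2 FPKM in KO lines and 36.1 FPKM in WT cells. Whether this region differed as a whole was not tested. Cdh1, E-cadherin, had 144 FPKM in KO lines and 152 FPKM in WT cells and was not called.

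In the list of LIF and uterine receptivity genes, 2 of 9 with a tested row were called, both lower, and 3 of the 9 had an unadjusted p under 0.05 in the authors' deposited table. Irg1, which marks the receptive uterus in mouse and encodes the enzyme that makes itaconate (chromosome 15, 93612926 to 93622671), fell to 27.3 FPKM in KO lines, against 39.2 FPKM in WT cells, a log2 fold of −0.52 at q = 0.00756 in the authors' deposited table. Hbegf, a ligand of the EGF receptor that is made at the implantation site in mouse, fell to 12.9 FPKM in KO lines, against 18.2 FPKM in WT cells, a log2 fold of −0.49 at q = 0.00756 in the authors' deposited table. Areg, another EGF receptor ligand, had 12.05 FPKM in KO lines and 15.2 FPKM in WT cells, with p = 0.0433 and q = 0.806 in the authors' deposited table. Lif, Lifr, Il6st and Stat3, which belong to the same list, were not called, as given above.

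The labelled epithelial origin was matched by high levels of the epithelial markers that had a tested row. Of 7 epithelial markers 6 had tested rows (Epcam, Cdh1, Krt8, Krt18, Cldn4 and Cldn7), with 121 to 419 FPKM in KO lines and 103 to 501 FPKM in WT cells, none of them called. An unadjusted p under 0.05 in the authors' deposited table was held by 3 of the 6. Epcam was lower in KO lines, with a log2 ratio of −0.26, and Krt8 and Krt18 were higher, at 0.24 and 0.23. The remaining epithelial marker, Krt19, had no row under its symbol. A symbol without a row therefore does not show that its RNA was absent, which also holds for the markers of other cell types. Of 5 endothelial markers 0 had a tested row, of 5 fibroblast markers 1 had one (Col1a1, 1.17 FPKM in KO lines and 1.43 FPKM in WT cells), and of 6 leukocyte markers 1 had one. That was Csf1r, called lower with 0.200 FPKM in KO lines and 0.791 FPKM in WT cells and q = 0.0187 in the authors' deposited table.

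**Figure D4:**
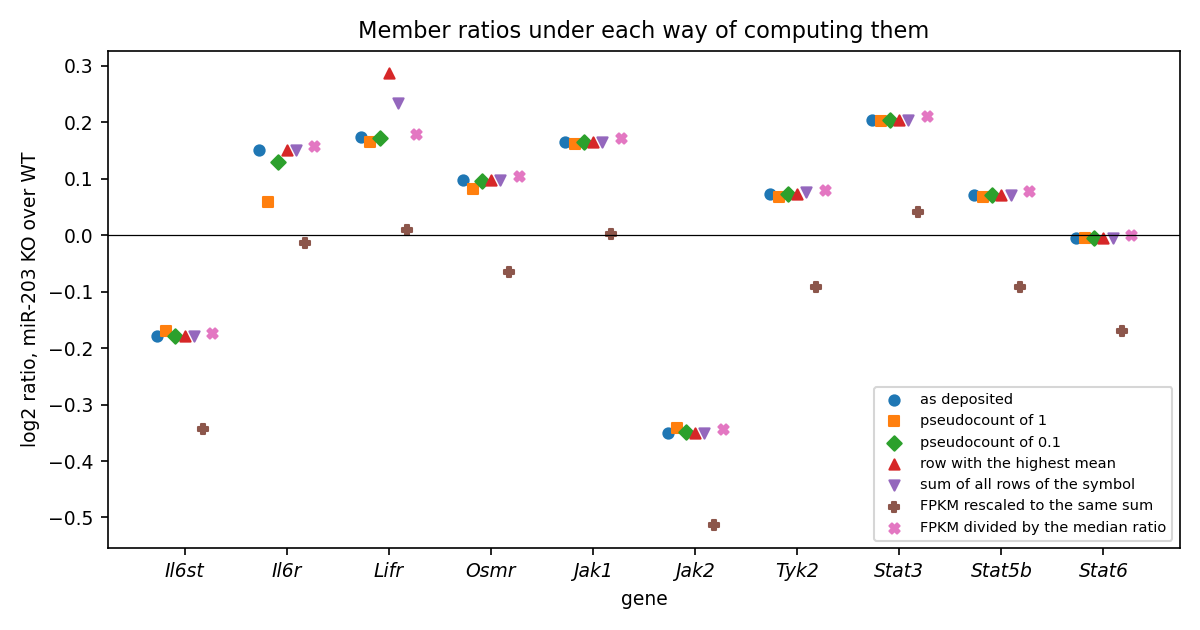
Log2 ratio of miR-203 KO over WT for each member as deposited and under 6 other ways of computing it. Jak2 and Il6st lie below 0 and Stat3, Lifr and Jak1 above 0 under all 7, while scaling to the same FPKM sum lowers every ratio by 0.16 and takes Il6r, Osmr, Tyk2 and Stat5b below 0.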

How the data were processed

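Per the labels' protocols, total RNA of 3 miR-203 KO lines and 3 WT batches was made into stranded libraries by the dUTP method. The submitters' processing notes list Cuffdiff 2.2.1.3, Cufflinks 2.2.1 and TopHat, the last as version 0.9, and the build rn6. Which annotation and which options were used is not given there. Per the file headers, the authors deposited 1 FPKM value per group and row, the log2 fold of KO over WT, a test statistic (a score), the p-value and the q-value. FPKM is per length and library size and keeps no depth. Cuffdiff shares reads between overlapping transcripts, so rows with the same coordinates are uncertain one by one.

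Numbers were read with decimal commas. Of 26751 rows, 26459 were tested. The deposited q matched Benjamini-Hochberg values recomputed over them, and in 425 the deposited fold differed from the FPKM ratio by over 0.01. Ratios in the text are of the deposited FPKM unless a sentence names a fold of the authors' table. Rows were joined by symbol, the longest locus first and, for equal loci, the first row listed. No test between replicates was possible, so limma, foreseen only for values per sample, was not run. List medians use genes whose mean FPKM was 1 or more. Computations were tested on simulated data. Python 3.11.15, pandas 2.3.3, NumPy 2.4.6 and matplotlib 3.10.9 were used.

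The members and lists were chosen with earlier results of these data known. Named genes are the members, called list genes, the 3 highest per list, the 3 largest uncalled ratios where mean FPKM was 5 or more, and Socs3. Stat5a, Rcl1, Plgrkt, Hp, Il12rb2, Wnt4, Fos, Tnfaip3, Pim3, Ptpn1 and the marker genes with values were named after their values were seen. So were symbols said to have no row. A gene first placed in the lists is not reported here and is left out of their counts and medians. Sequences are RefSeq entries matched by symbol.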

Additional observations from a re-analysis of the deposited data

How the results depend on the processing

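The number of members called was 0 under all 5 alternatives, which include q under 0.01 and p adjusted only where mean FPKM was 1 or more, or 5 or more. The 277 calls of the whole table became 175 at q under 0.01, 173 with p adjusted where mean FPKM was 5 or more, which tests fewer rows, and 113 with a fold of at least 2. At q under 0.01 the calls among reported STAT3 targets became 2. Of 60 recomputed member ratios 55 kept their direction. Scaling to the same FPKM sum gave −0.013 for Il6r, −0.066 for Osmr, −0.091 for Tyk2 and −0.092 for Stat5b, and division by the median ratio gave 0.0012 for Stat6. Scaling to the same sum moves every median by −0.16 by construction, to −0.091 for the members, −0.11 for ligands, −0.033 for other family receptor chains, −0.12 for other JAK and STAT genes, −0.13 for other receptors, −0.17 for inhibitors, −0.14 for adaptors, −0.25 for STAT3 targets, −0.24 for STAT5 or STAT6 targets and −0.34 for receptivity genes. The median of receptivity genes was −0.049 where mean FPKM was 5 or more, with fewer genes. The other 38 medians moved by at most 0.1. The other family receptor chains had no gene at that minimum. No paired analysis was possible because each group has a single pooled column, and leaving out each replicate was not run for the same reason.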
